A study of Mus musculus with 6 samples.

Results

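The genes described here encode cytokines, chemokines and their receptors: CC and CXC chemokine ligands and receptors, interleukins with their receptor subunits and inhibitors, and the ligands and receptors of the TNF superfamily. They were taken by symbol, as every gene whose name in the platform annotation starts with Ccl, Cxcl, Ccr, Cxcr or Il followed by a digit, or with Tnfsf or Tnfrsf, leaving out Cxcl9 and Cxcl10. This gave 156 genes and 259 probes, of 19057 genes with a named probe and 45281 probes on the array. RNA came from the kidney cortex of 6 male C57BL6 mice, labelled 12 weeks old. The captopril group held 3 mice that drank captopril, an inhibitor of angiotensin-converting enzyme, at 10 mg/kg/day for 7 days starting at 11 weeks. The control group held 3 mice, and the labels give no treatment for them. Each mouse had its own Illumina MouseWG-6 v2 bead array, and the number of arrays limits the precision of every value.

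Chemokines are small secreted proteins that bind G protein-coupled receptors on leukocytes and direct their movement, and a few are made constantly by resting tissue. Interleukins signal through receptor chains that are often shared between several ligands, many of which act through JAK kinases and STAT transcription factors, while the interleukin 1 and interleukin 17 receptor families and many TNF receptors act through adaptors that lead to the transcription factor NF-kB. In the kidney, tubule cells, endothelium and resident macrophages make chemokines and carry several of these receptors, and the inflammatory members are known for their induction after injury.

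The 6 arrays were alike in detection and correlation: 36.2% to 38.2% of all probes had a detection p-value under 0.05, and array pairs correlated at 0.984 to 0.987. Markers of kidney cells were detected, with 8 of 8 for proximal tubule, 6 of 6 for collecting duct and 6 of 6 for endothelium. Loop of Henle and distal tubule had 5 of 6, fibroblast and mural cells 6 of 7, and podocytes 3 of 5 listed, of which 3 had a probe. These lists were not used to test cortex against other parts of the kidney. None of the 6 adrenal markers and none of the 6 neutrophil markers with a probe was detected. Adipocyte markers were detected for 4 of 9 genes with a probe, and their centred level was 0.92, -0.70 and 0.77 on the captopril arrays against -0.82, -0.41 and 0.24 on the control arrays (log2, mean over those genes). Their part in the results below was not tested. In bulk cortex, fewer cells of a type and less RNA per cell cannot be told apart.

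A gene counted as detected if 1 or more of its probes reached a detection p-value below 0.05 on 3 or more arrays of either group together. By that rule 51 of the 156 genes were detected (32.7%), against 9718 of all 19057 named genes (51.0%). The best probe of 33 genes was detected on all 6 arrays and that of 18 genes on 3 to 5. A further 35 genes were detected on 1 or 2 arrays, and 70 on 0 arrays. Partial detection was more frequent among detected members (35.3%) than among all detected genes (14.6%, by the representative probe), and no test was made of that difference. Non-detection means that a signal was not told from background on this array, not that the RNA was absent.

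Detection varied among the subgroups, and no test was made of this. Of the interleukin receptor subunits 18 of 36 genes were detected, 8 of them on all 6 arrays, and of the TNF superfamily receptors 8 of 20, with 5 on all 6. Chemokine receptors had none, with 0 of 10 CC receptors and 0 of 6 CXC receptors. Among ligands, 8 of 22 CC chemokines, 4 of 10 CXC chemokines, 9 of 38 interleukins and 3 of 11 TNF superfamily ligands were detected.

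**Figure D1:**
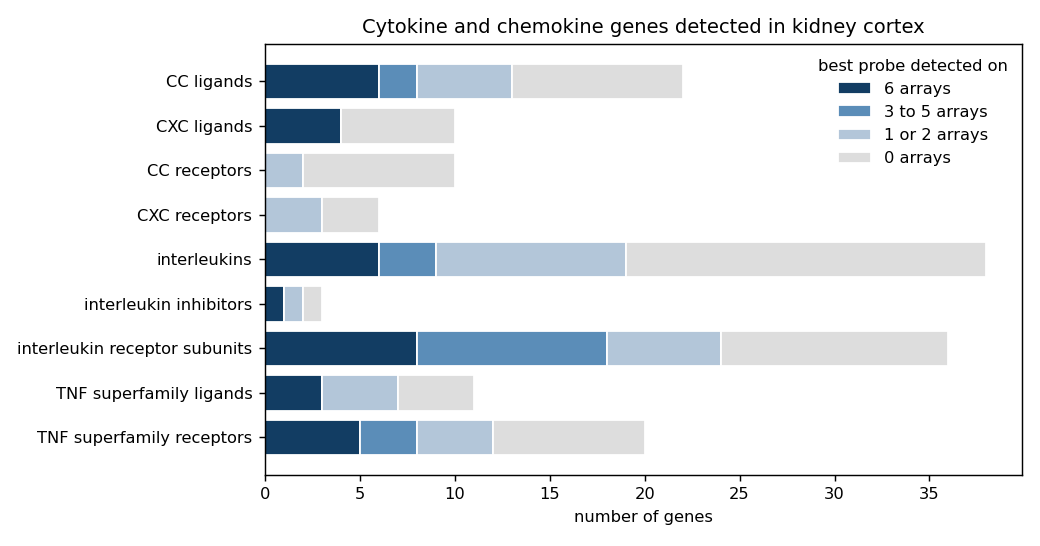
Number of genes in each subgroup (rows), by the number of arrays on which the gene's best probe had a detection p under 0.05 (shades). Interleukin receptor subunits reach 18 of 36 detected on at least 3 arrays, and the 16 CC and CXC chemokine receptors have 0.

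No detected member passed the test between captopril and control at a Benjamini-Hochberg adjusted p of 0.05 in limma, where every member had an adjusted p of at least 0.995. Over all probes 3 of 16500 passed (0.0182%), and over all named genes 0 of 9718 did (0%). At an unadjusted p under 0.05, 1 member was found, Il7r (1.96% of 51), against 359 of 9718 named genes (3.69%). The captopril and control values did not overlap for 4 of the 51 members (7.84%), against 8.73% of all named genes. Il7r and Il13ra1 lay above control on every captopril array, where 3.98% of all named genes did, and Tnfrsf22 and Tnfrsf25 lay below, where 4.74% did. These shares are near the background of all genes.

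The differences were spread around zero. Of the 51 detected members, 25 had a higher mean with captopril and 26 a lower one (49.0% above 0, against 49.1% of all named genes). The median log2 difference, captopril minus control, was -0.02 for members and -0.003 for all named genes, and 1 member (1.96%), Il7r, differed by more than 0.5 in size, against 1.92% of all named genes. Their middle values were wider, with an interquartile range of -0.17 to 0.17 against -0.11 to 0.11, and so was their scatter over the 6 arrays, with a median SD of 0.26 against 0.19. By subgroup the median difference was 0.16 for CC ligands, 0.02 for CXC ligands, -0.05 for interleukins, -0.07 for interleukin receptor subunits, 0.03 for TNF superfamily ligands and -0.05 for TNF superfamily receptors.

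**Figure D2:**
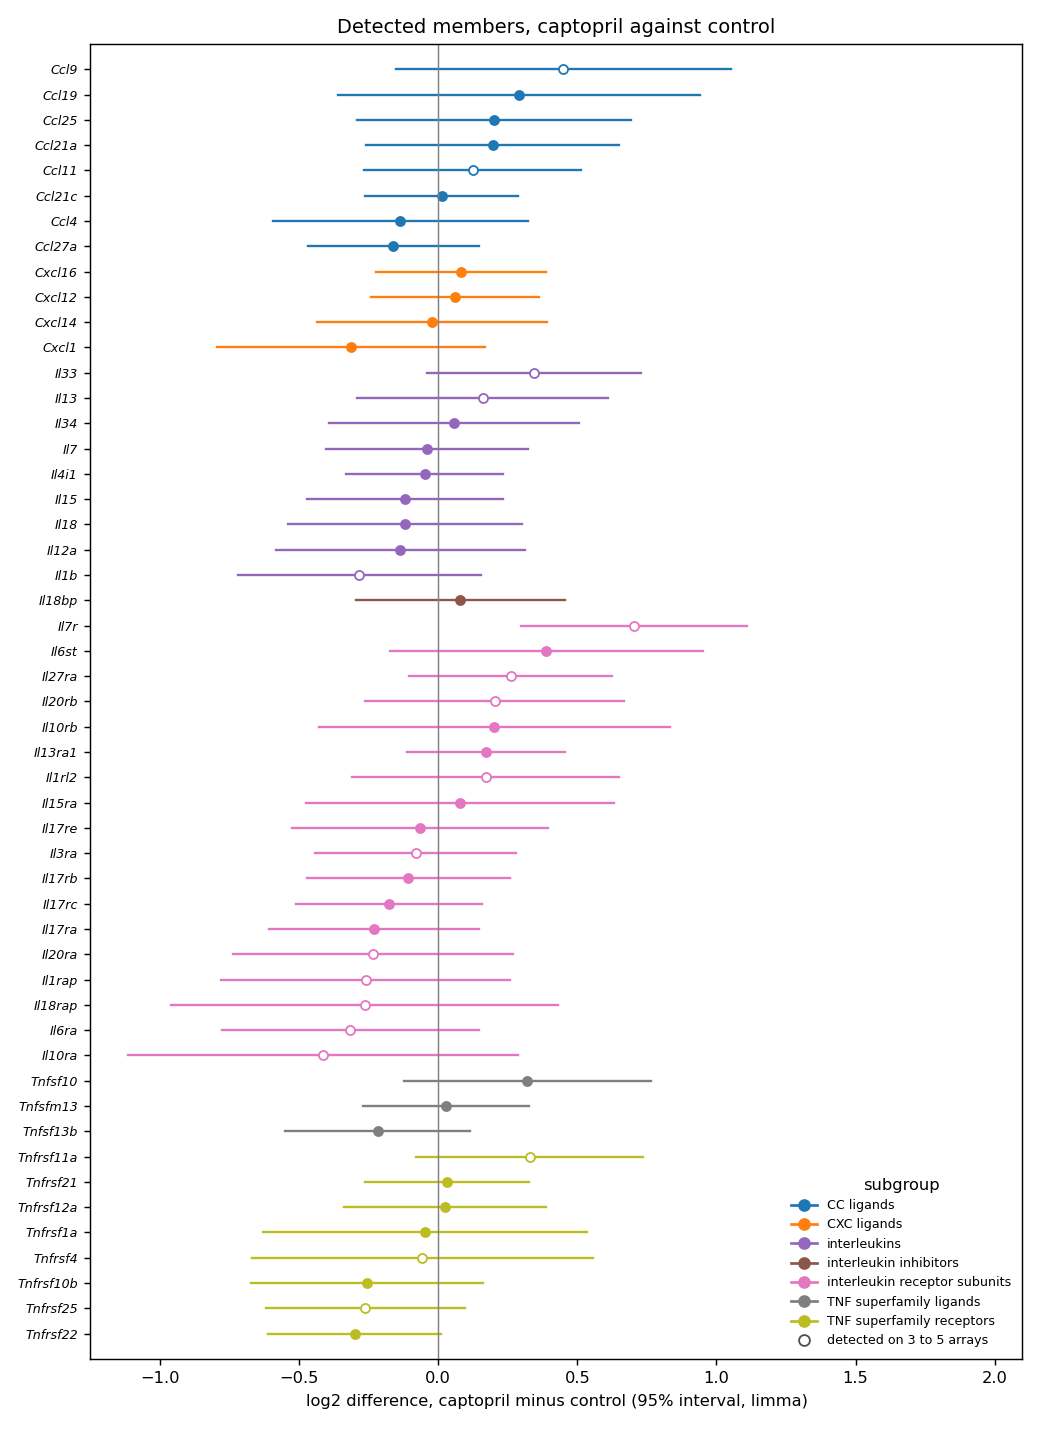
The log2 difference, captopril minus control, of each detected member (points, 3 arrays per group) with its 95% interval from limma (lines), coloured by subgroup. Open points mark genes detected on 3 to 5 arrays; the interval of Il7r, 0.30 to 1.11, is the one that leaves out 0.

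Of the CC chemokine ligands, 6 were detected on all 6 arrays: Ccl4, Ccl19, Ccl21a, Ccl21c, Ccl25 and Ccl27a. Ccl9 and Ccl11 were detected on 5. Ccl19 and the Ccl21 genes encode the ligands of Ccr7 that guide T cells and dendritic cells into lymphoid tissue. Ccl19 had log2 intensities of 7.06, 7.15 and 6.04 on the captopril arrays and 6.40, 6.32 and 6.66 on the control arrays. Captopril arrays 1 and 2 were above all controls and array 3 below all of them, and the difference was 0.29 (SE 0.28), or 0.64 once captopril array 3 was left out, 0.14 once array 1 was and 0.09 once array 2 was. Ccl21a differed by 0.20 (SE 0.20). Ccl21c differed by 0.01 (SE 0.12) at its brightest probe and by 0.42 at its other tested probe. Copies of Ccl21 are near-identical, so their probes may not tell them apart.

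Ccl9, a ligand of Ccr1 in mouse, had log2 intensities of 6.09, 5.74 and 5.10 with captopril and 5.16, 4.91 and 5.50 in controls. The groups overlapped, and the difference of 0.45 (SE 0.26) ran between 0.21 and 0.72 as single arrays were left out, the lowest without captopril array 1 and the highest without captopril array 3. Ccl25, the ligand of Ccr9, differed by 0.20 (SE 0.21). Ccl27a, the ligand of Ccr10, had a difference of -0.16 (SE 0.13), with -0.30 at its other tested probe. Ccl4, a chemokine of activated macrophages, had a difference of -0.14 (SE 0.20), and Ccl11, the eosinophil attractant eotaxin, of 0.12 (SE 0.17). In all, 6 of 8 CC ligands had a higher mean with captopril, against 49.1% of all named genes, and 0 of 8 had groups that did not overlap, against 8.73%.

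Not detected were Ccl2, Ccl3, Ccl6, Ccl8, Ccl1, Ccl17, Ccl22, Ccl24 and Ccl28 (0 arrays), Ccl7, Ccl12 and Ccl26 (1 array), and Ccl5 and Ccl20 (2 arrays, both of them captopril arrays). Ccl2, Ccl7, Ccl8 and Ccl12 are monocyte attractants. In the gene order of GRCm38.p6, Ccl2, Ccl7, Ccl11, Ccl12, Ccl8 and Ccl1 form a run of neighbours in which 1 of 6, Ccl11, was detected. Here and below, neighbours in a run are members of 1 subgroup with at most 10 other protein-coding genes between consecutive ones, so they need not be adjacent. A second run, of Ccl5, Ccl9, Ccl6, Ccl3 and Ccl4, had 2 of 5 detected.

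Captopril array 2 held the highest value of 4 of the 8 CC ligands, control array 3 of 2 and captopril array 1 of 1. The mean centred level of the 8 genes was 0.08, 0.25 and -0.14 on the captopril arrays and -0.09, -0.14 and 0.05 on the control arrays, so the groups overlapped. The median difference of the subgroup was 0.07 without captopril array 2 and 0.04 without control array 1. It was 0.31 without captopril arrays 1 and 3, where adipocyte markers were high, a setting chosen after seeing the data. That setting leaves captopril array 2 alone in its group, so the value rests on 1 captopril mouse. Markers of macrophages and dendritic cells were highest on captopril arrays 1 and 2. The centred level of the 13 detected markers, of 17 listed, was 0.26, 0.42 and -0.32 with captopril and -0.02, -0.16 and -0.19 in controls. All 13 had a higher mean with captopril, at 0.03 to 0.55, and none passed the test. Adgre1, Itgam and Itgax were not detected. The summed raw intensity of the detected markers was 9345 to 15253 with captopril and 8354 to 10879 in controls. These sums were not normalized, and the raw median of an array ran from 111 (control array 2) to 147 (captopril array 1). The part of these cells in the CC ligand values was not tested.

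The CXC ligands detected, all on 6 arrays, were Cxcl1, Cxcl12, Cxcl14 and Cxcl16. Cxcl12, the constantly made ligand of Cxcr4, had log2 intensities of 10.87, 11.14 and 10.88 with captopril and 10.94, 10.88 and 10.88 in controls. Captopril array 2 stood highest and the other values lay close together, with a difference of 0.06 (SE 0.13). Cxcl16, a chemokine that is also made as a membrane-bound protein and binds Cxcr6, had 9.94, 10.08 and 9.77 with captopril and 9.85, 9.79 and 9.91 in controls. The groups overlapped, with a difference of 0.08 (SE 0.13), and Cxcl14, an epithelial chemokine, differed by -0.02 (SE 0.18).

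Cxcl1, a neutrophil attractant that binds Cxcr2, had log2 intensities of 6.33, 5.74 and 6.37 with captopril and 6.63, 6.57 and 6.18 in controls. The lowest value was captopril array 2 and control array 3 lay below both other captopril arrays, so the groups overlapped, with a difference of -0.31 (SE 0.21) that was -0.11 once captopril array 2 was left out. Cxcl1 was the 1 detected gene in a run of 4 neighbours, Cxcl3, Cxcl15, Cxcl1 and Cxcl2. Cxcl2 and Cxcl3, which bind the same receptor, were detected on 0 arrays, as were Cxcl11, Cxcl13, Cxcl15 and Cxcl17. The start-site windows of Cxcl1, Cxcl2 and Cxcl3 are printed because these neighbours differ in detection and carry like motifs. Cxcl15, also in the run, is not printed. Its window had a TATA box at bases 27 to 22 before the start and no NF-kB match. The windows are from RefSeq, build GRCm38.p6, plus strand, 5′ to 3′, from 250 bases before to 50 bases after the start: Cxcl1 at chr5:90890995-90891294, Cxcl2 at chr5:90903649-90903948 and Cxcl3 at chr5:90785851-90786150. Capitals mark matches to an NF-kB site, GGG and TTTCC parted by any 2 bases, on either strand, and to the TATA box TATAAA.
Cxcl1: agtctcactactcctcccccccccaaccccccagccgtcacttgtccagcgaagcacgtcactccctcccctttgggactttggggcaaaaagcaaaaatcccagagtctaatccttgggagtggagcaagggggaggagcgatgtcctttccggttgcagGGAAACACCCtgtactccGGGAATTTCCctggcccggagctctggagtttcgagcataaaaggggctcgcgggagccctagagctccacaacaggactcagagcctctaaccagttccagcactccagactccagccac
Cxcl2: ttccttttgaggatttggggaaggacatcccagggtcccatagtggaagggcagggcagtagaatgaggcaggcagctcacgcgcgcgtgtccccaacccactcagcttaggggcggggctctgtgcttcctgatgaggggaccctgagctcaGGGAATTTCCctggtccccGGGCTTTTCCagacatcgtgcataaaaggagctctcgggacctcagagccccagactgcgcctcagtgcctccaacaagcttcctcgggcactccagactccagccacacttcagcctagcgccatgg
Cxcl3: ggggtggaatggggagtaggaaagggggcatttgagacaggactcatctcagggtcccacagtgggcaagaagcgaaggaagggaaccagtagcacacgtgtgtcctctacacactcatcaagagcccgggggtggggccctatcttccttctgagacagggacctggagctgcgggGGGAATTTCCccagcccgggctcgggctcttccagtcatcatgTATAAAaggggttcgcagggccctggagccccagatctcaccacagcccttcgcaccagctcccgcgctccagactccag
Cxcl1 held 2 NF-kB matches, at bases 89 to 80 (reverse strand) and 71 to 62 before the start. Cxcl2 held 2, at bases 97 to 88 and 78 to 69, and Cxcl3 held 1, at bases 73 to 64, with a TATA box at bases 30 to 25.

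Windows were found for 118 of the 156 genes. The same NF-kB motif, searched on both strands, was in at least 1 window of 15 of these 118 genes (12.7%), against 512 of all 27025 genes with a window (1.89%). It was in 4 of 38 detected genes (10.5%; Ccl9, Cxcl1, Il17rc and Tnfrsf25) and in 11 of 80 undetected genes (13.8%). TATAAA, also on both strands, was found for 20 of 59 ligand and inhibitor genes (33.9%) and 6 of 59 receptor genes (10.2%), against 15.7% of all genes. CCGGAAGT, the letters of an ETS factor site, was found for 0 of the 118 genes, against 4.31% of all genes. A match is a description of these letters, not a binding site.

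The CC and CXC chemokine receptors gave no test. Ccr1, Ccr1l1, Ccr2, Ccr3, Ccr6, Ccr8, Ccr9, Ccr10, Cxcr1, Cxcr3 and Cxcr6 were detected on 0 arrays, and Ccr4, Ccr7, Cxcr2 and Cxcr5 on 1. Cxcr4, the receptor of Cxcl12, was detected on 2 arrays, 1 captopril and 1 control. Ccr7, Ccr9, Ccr10, Cxcr2, Cxcr4 and Cxcr6, which bind the detected ligands Ccl19, Ccl21a, Ccl25, Ccl27a, Cxcl1, Cxcl12 and Cxcl16, were thus all below the detection rule in cortex. The neighbours Ccr9, Ccr1, Ccr1l1, Ccr3 and Ccr2 had 0 of 5 detected.

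The interleukins detected on all 6 arrays were Il7, Il12a, Il15, Il18, Il34 and Il4i1, the last being a gene for an amino acid oxidase that carries an interleukin name. Il1b and Il13 were detected on 5 arrays and Il33 on 4. Il33 encodes an alarmin that damaged barrier and stromal cells release. Its log2 intensities were 5.58, 5.51 and 5.35 with captopril and 4.98, 5.46 and 4.98 in controls. It was detected on 3 captopril arrays and on 1 control array, and that control lay among the captopril values. The difference was 0.34 (SE 0.17, limma adjusted p = 0.995). For Il33 the captopril arrays alone met the detection rule, which could favour a higher captopril value.

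Il1b, the main inflammatory interleukin 1, had log2 intensities of 5.12, 5.26 and 4.69 with captopril and 5.23, 5.13 and 5.56 in controls. The groups overlapped, with a difference of -0.28 (SE 0.19). Il15, which sustains natural killer and memory T cells, had 9.44, 9.47 and 9.85 with captopril and 9.80, 9.60 and 9.70 in controls. Captopril array 3 was the highest and the other captopril arrays the lowest, with a difference of -0.12 (SE 0.15). Il34, the second ligand of the macrophage receptor Csf1r, had a difference of 0.06 (SE 0.19), and Il18, which is cleaved by caspase 1 as Il1b is, one of -0.12 (SE 0.18). Il7, the lymphocyte survival factor, differed by -0.04 (SE 0.16), Il12a by -0.14 (SE 0.20), Il13 by 0.16 (SE 0.20) and Il4i1 by -0.05 (SE 0.12).

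Of the other 29 interleukins, 10 were detected on 1 or 2 arrays and 19 on 0. Il6, the acute phase inducer, was detected on 1 array, and Il1a on 2, both captopril. Il17c and Il17d were each detected on 1 captopril and 1 control array, and Il5, Il16, Il17a, Il24, Il1f5 and Il1f10 on 1 array. Detected on 0 arrays were Il2, Il3, Il4, Il9, Il10, Il11, Il17b, Il17f, Il19, Il1f6, Il1f8, Il1f9, Il20, Il21, Il22, Il23a, Il25, Il27 and Il31. In the run of Il4, Il13, Il5 and Il3, 1 of 4 was detected, Il13. Among the inhibitors, Il18bp, a secreted decoy that binds Il18, was detected on 6 arrays with a difference of 0.08 (SE 0.16), Il22ra2 on 1 array and Il1rn on 0.

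Il7r, the interleukin 7 receptor chain that lymphocytes carry, had the largest difference of the 51 detected members. Its probe ILMN_2680827 had log2 intensities of 5.06, 5.32 and 5.57 on the captopril arrays and 4.81, 4.39 and 4.63 on the control arrays. All captopril values lay above all control values, and the probe was detected on 3 captopril arrays and 0 control arrays. The means were 5.31 ± 0.25 with captopril and 4.61 ± 0.21 in controls (SD, n = 3 each), at least 1.20-fold higher with captopril when controls are set at the detection floor. The fitted difference was 0.70 (SE 0.18, 95% interval 0.30 to 1.11; limma adjusted p = 0.995). The probe met the detection rule through the captopril arrays alone, so the rule itself favoured a higher captopril value. The fold bound, the interval and the unadjusted call are thus a description only. The probe was no longer tested once any captopril array was left out.

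The other probes of Il7r did not follow. Of 5 probes, 2 were tested, and the other, ILMN_1237567, had 4.68, 5.09 and 4.48 with captopril and 5.15, 4.79 and 5.22 in controls. Its values overlapped and its difference was -0.30 (SE 0.19), opposite in sign. The 3 probes below the detection rule differed by -0.05, 0.12 and -0.16, and the mean over the 2 tested probes was 0.20. For ILMN_2680827 the authors' processed values gave 0.10 and uncorrected intensities 0.22. Of 11 T and natural killer cell markers, 9 had a probe and 4 were detected. Cd3d, Cd3g and Nkg7 differed by 0.35, 0.29 and 0.20 and Cd8b1 by -0.04, Cd3e, Cd4, Cd8a and Cd2 were not detected. The summed raw intensity of the 4 was 7586 to 11401 with captopril and 8755 to 9674 in controls, of which Cd8b1 alone made up 7182 to 10870 with captopril and 8398 to 9260 in controls. Their centred level was 0.19, 0.10 and 0.01 with captopril and -0.14, -0.06 and -0.10 in controls, and their part in the Il7r value was not tested.

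The receptor chains of the interleukin 6 family were read on both sides of 0. Il6st, the signal chain gp130 that the family shares, had log2 intensities of 7.11, 6.82 and 7.40 with captopril and 7.12, 6.23 and 6.81 in controls. The groups overlapped, control array 2 was the lowest, and the difference was 0.39 (SE 0.24), or 0.15 once control array 2 was left out, 0.24 once captopril array 3 was and 0.59 once control array 1 was. Il6ra, the chain that binds interleukin 6, had 5.03, 4.98 and 5.16 with captopril and 5.81, 5.03 and 5.28 in controls. Control array 1 stood apart from the rest, and the difference was -0.32 (SE 0.20), or -0.098 once that array was left out and -0.50 once control array 2 was, while the gene's other tested probe had 0.07. Il27ra, the receptor for interleukin 27 that pairs with gp130, differed by 0.26 (SE 0.16).

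Il13ra1, the chain that binds interleukin 13 and joins Il4ra, had log2 intensities of 9.03, 9.15 and 9.22 with captopril and 8.91, 9.02 and 8.96 in controls. All captopril values were above all control values, by a narrow margin, and the difference was 0.17 (SE 0.12). Il4ra itself was detected on 0 arrays.

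The 4 detected chains of the interleukin 17 receptor family had lower means with captopril by their brightest probe, but Il17re turned above 0 under median scaling, with the mean of its probes and in 3 of the fits that left out 1 array, Il17rb in 1 of those fits, and Il17rc without captopril arrays 1 and 3. Il17ra, the chain that most interleukin 17 receptors share, had log2 intensities of 5.45, 5.80 and 5.56 with captopril and 5.64, 5.80 and 6.08 in controls. The groups overlapped, with a difference of -0.23 (SE 0.16). Il17rc, its partner in the receptor for Il17a and Il17f, differed by -0.18 (SE 0.15), and Il17rb, the chain for Il25, by -0.11 (SE 0.16). Il17re, the chain for Il17c, differed by -0.07 (SE 0.20) at its brightest probe and by 0.08 and 0.27 at its other tested probes. Il17rd was detected on 1 array.

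In the interleukin 10 and 20 receptor family, Il10ra, which binds interleukin 10, had the lowest difference of the detected members and the widest range. Its log2 intensities were 5.57, 5.18 and 4.82 with captopril and 5.05, 6.22 and 5.55 in controls. Control array 2 stood above the rest and the groups overlapped, with a difference of -0.42 (SE 0.31) that came to -0.11 when control array 2 was left out, -0.69 for control array 1 and -0.23 for captopril array 3. Il10rb, the chain shared by several receptors of the family, differed by 0.20 (SE 0.27), Il20ra by -0.24 (SE 0.22) and Il20rb by 0.20 (SE 0.20).

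Of the interleukin 1 and 18 receptor chains, Il1rap, the shared accessory chain, differed by -0.26 (SE 0.23), Il18rap, the accessory chain for Il18, by -0.26 (SE 0.30), and Il1rl2, the receptor for interleukin 36, by 0.17 (SE 0.21). The ligand-binding chains Il1r1 and Il18r1 were detected on 0 and 1 arrays. In the run of Il1r2, Il1r1, Il1rl2, Il18r1 and Il18rap, 2 of 5 were detected. Il15ra, which presents Il15 to neighbouring cells, differed by 0.08 (SE 0.24) at its brightest probe and by -0.40 and -0.105 at its other tested probes. Il3ra differed by -0.08 (SE 0.16). Il2rb, the chain that receives Il15, was detected on 1 array. The remaining chains below the rule were Il12rb2, Il21r and Il22ra1 with 1 array, and Il12rb1, Il13ra2, Il1r2, Il1rapl1, Il1rapl2, Il23r, Il2ra, Il31ra, Il5ra and Il9r with 0.

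**Figure D3:**
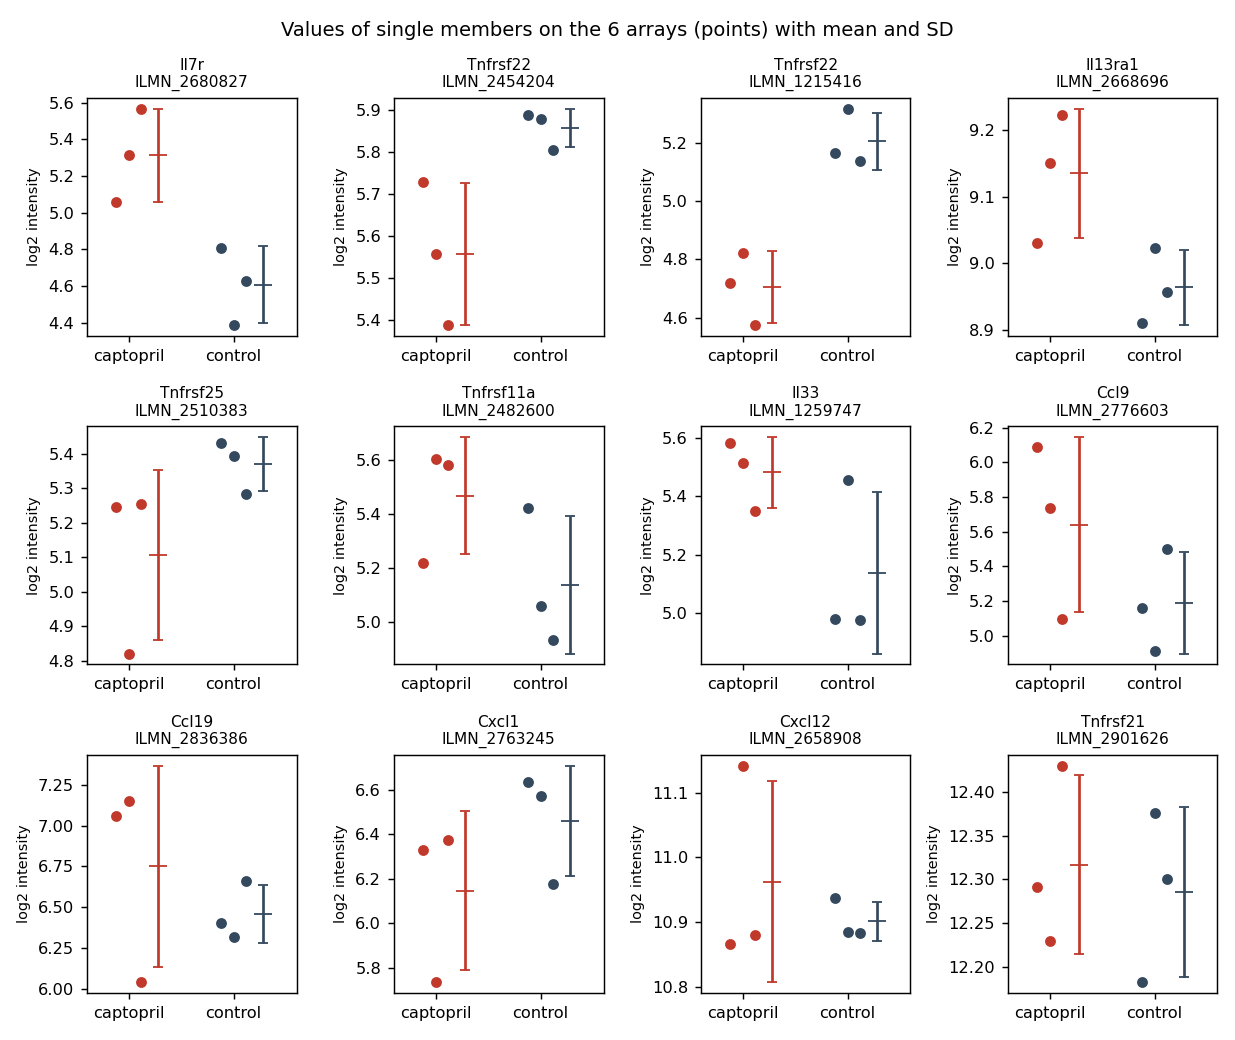
The log2 intensity of 12 probes of 11 genes on each array (points, captopril left, control right) with the mean and SD of the 3 arrays (bars); each panel has its own axis. Il7r and Il13ra1 do not overlap with captopril above, both Tnfrsf22 probes and Tnfrsf25 do not overlap with captopril below, and the other panels overlap.

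The TNF superfamily ligands detected, all on 6 arrays, were Tnfsf10, Tnfsf13b and Tnfsfm13, the read-through of Tnfsf12 and Tnfsf13. Its probe may not tell the read-through from RNA of Tnfsf12 or Tnfsf13, and this was not checked. Tnfsf10 encodes TRAIL, which triggers cell death through death receptors. Its log2 intensities were 8.03, 7.75 and 7.44 with captopril and 7.62, 7.14 and 7.50 in controls. Captopril array 1 was the highest and control array 2 the lowest, the groups overlapped, and the difference was 0.32 (SE 0.19). Tnfsf13b, the B cell survival factor BAFF, differed by -0.22 (SE 0.14), with -0.24 at its other tested probe, and Tnfsfm13 by 0.03 (SE 0.13). Tnfsf11, Tnfsf12, Tnfsf14 and Tnfsf18 were detected on 1 array, and Tnfsf4, Tnfsf8, Tnfsf9 and Tnfsf15 on 0.

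Tnfrsf22, a TRAIL decoy receptor known in mouse, had lower values with captopril at both of its tested probes and did not pass the adjusted test. The brighter probe, ILMN_2454204, had log2 intensities of 5.73, 5.56 and 5.39 with captopril and 5.89, 5.88 and 5.81 in controls. The second, ILMN_1215416, had 4.72, 4.82 and 4.57 with captopril and 5.16, 5.32 and 5.14 in controls. Neither probe overlapped between the groups. The brighter probe differed by -0.30 (SE 0.14; limma adjusted p = 0.995). The second was detected on 0 captopril arrays and 3 control arrays, at least 1.12-fold lower with captopril, with a fitted difference of -0.50 (SE 0.13, 95% interval -0.80 to -0.20; limma adjusted p = 0.995, unadjusted p under 0.05). That second probe met the detection rule through the control arrays alone, which favoured a lower captopril value, so it lends the brighter probe no support. Its fold bound, interval and unadjusted call are a description only. The 3 remaining probes were below the detection rule and differed by -0.11, 0.19 and -0.07. The neighbouring genes Tnfrsf23 and Tnfrsf26 were detected on 0 arrays.

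Tnfrsf10b, the mouse death receptor for TRAIL, had log2 intensities of 7.08, 6.82 and 7.38 with captopril and 7.26, 7.21 and 7.58 in controls. Captopril array 3 lay inside the control range, and the difference was -0.26 (SE 0.18). Tnfrsf25, a death domain receptor of T cells whose ligand is Tnfsf15, had 5.24, 4.82 and 5.25 with captopril and 5.43, 5.39 and 5.28 in controls. Its groups did not overlap, although the closest values differed by little, and the difference was -0.26 (SE 0.16). Tnfrsf11a, which encodes RANK, had 5.22, 5.60 and 5.58 with captopril and 5.42, 5.06 and 4.93 in controls. It was detected on 3 captopril arrays and 1 control array, and the groups overlapped, with a difference of 0.33 (SE 0.18). Here too the captopril arrays alone met the detection rule, which could favour a higher captopril value.

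Tnfrsf1a, the main TNF receptor of tissue cells, had log2 intensities of 7.27, 7.70 and 7.02 with captopril and 6.86, 7.62 and 7.64 in controls. The groups overlapped fully, with a difference of -0.05 (SE 0.25). Tnfrsf21, death receptor 6, differed by 0.03 (SE 0.13), Tnfrsf12a, the receptor for the cytokine TWEAK encoded by Tnfsf12, by 0.02 (SE 0.16) and Tnfrsf4, the T cell receptor OX40, by -0.06 (SE 0.27). Tnfrsf11b, Tnfrsf13b, Tnfrsf13c and Tnfrsf18 were detected on 1 array, and Tnfrsf1b, Tnfrsf8, Tnfrsf9, Tnfrsf14, Tnfrsf17 and Tnfrsf19 on 0. The 3 receptors for Tnfsf13b, which are Tnfrsf13b, Tnfrsf13c and Tnfrsf17, were thus below the rule.

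Several genes were read by more than 1 probe. Of 16 detected genes with several tested probes, 8 had probes of the same sign: Ccl21c, Ccl25, Ccl27a, Cxcl12, Il17rc, Tnfrsf21, Tnfrsf22 and Tnfsf13b. The other 8, Cxcl14, Cxcl16, Il15, Il15ra, Il17re, Il6ra, Il7r and Tnfrsf1a, had probes of both signs. Of these probes, the intervals that left out 0 were those of the Il7r probe ILMN_2680827 and the Tnfrsf22 probe ILMN_1215416, which were each detected in 1 group only and so were selected by the detection rule in their direction.

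**Figure D4:**
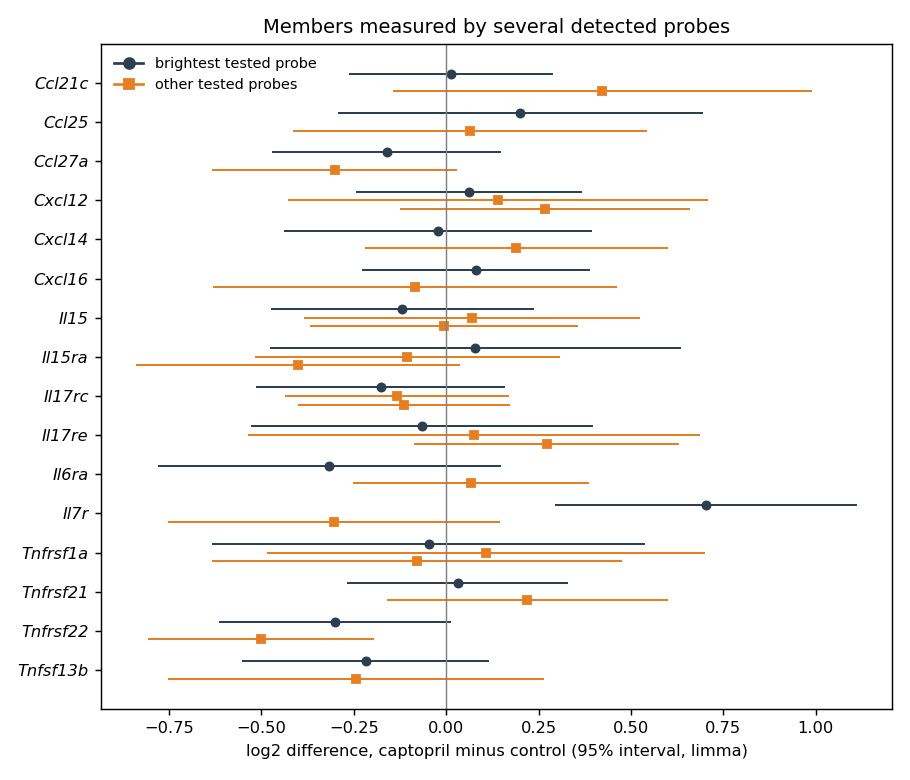
The log2 difference, captopril minus control, of every tested probe of the 16 genes with several tested probes, with 95% intervals from limma; circles are the brightest probe and squares the others. The Il7r probes lie at 0.70 and -0.30, the Tnfrsf22 probes at -0.30 and -0.50.

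No array stood apart over the whole set. The mean centred level of the 51 genes was 0.03, 0.02 and -0.04 on the captopril arrays and 0.01, -0.03 and 0.01 on the control arrays. Captopril array 2 held the highest value of 14 genes and captopril array 3 the lowest of 12, the most of any array in each case.

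**Figure D5:**
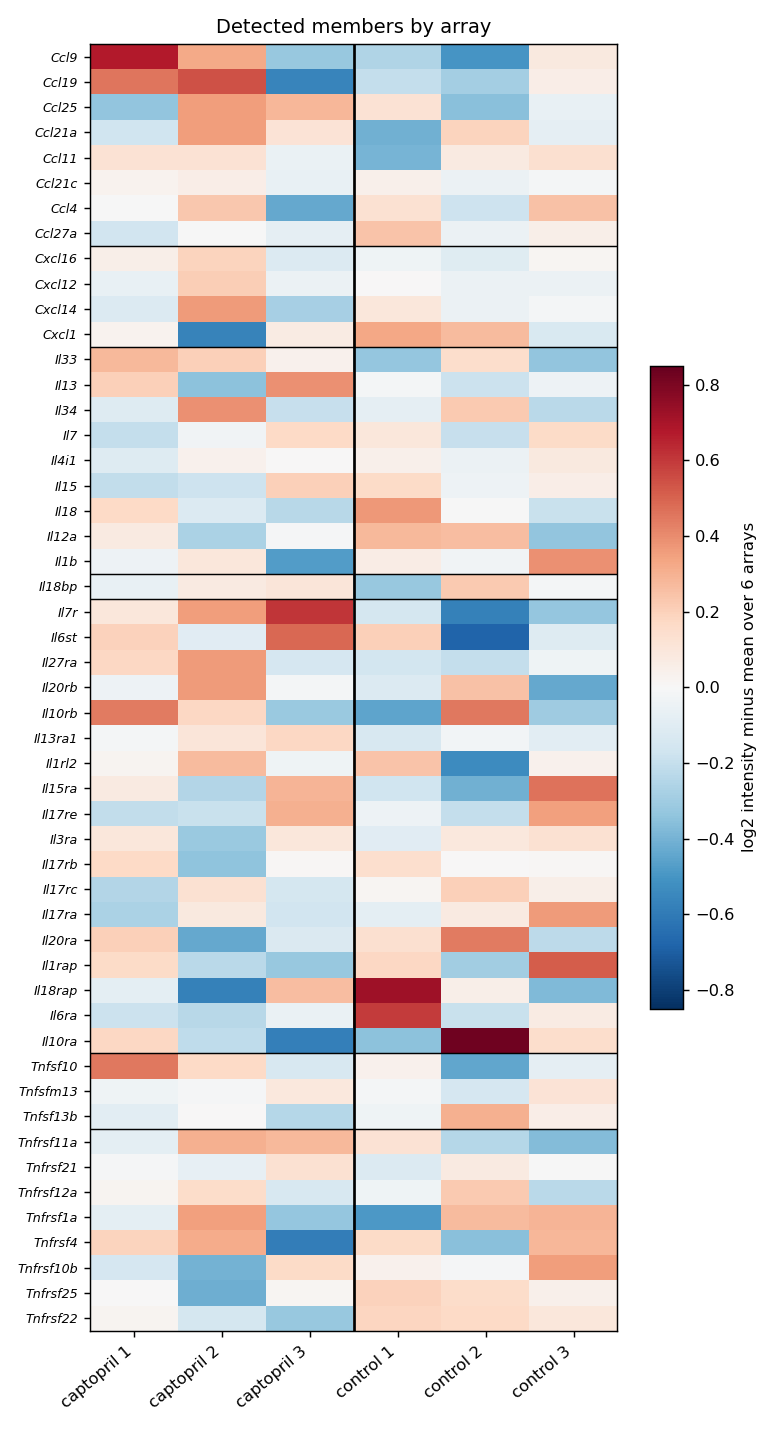
Log2 intensity of each detected member on each array, less its mean over the 6 arrays (colour); captopril arrays are left of the thick line and controls right, and thin lines part the subgroups. Il10ra on control array 2, Il18rap on control array 1 and Ccl9 on captopril array 1 hold the deepest red cells.

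The genes around these members were read from lists of their partners. Of 17 other chemokines and chemokine receptors, 9 were tested, 4 had a higher and 5 a lower mean with captopril, and the median difference was -0.02. The highest difference was 0.55, that of the chemokine receptor gene Cx3cr1, and the lowest was -0.36. Of 31 colony stimulating factors and other cytokines, 11 were tested, with 6 higher, 5 lower and a median of 0.03. Tnf, Lta, Ltb and Csf1 were not detected. Of 36 genes of NF-kB and TNF receptor signalling, 24 were tested, 12 on each side of 0, with a median of -0.001 and 0 at an unadjusted p under 0.05. None of these genes passed the adjusted test in limma.

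Signal genes downstream of interleukin receptors likewise had none past the adjusted test. Of 23 JAK, STAT and SOCS genes, 20 were tested, 11 with a higher and 9 with a lower mean and a median of 0.04, and 2 were lower at an unadjusted p under 0.05 against 1.78% of all named genes. Stat4, the signal transducer of interleukin 12, was detected on 1 captopril and 3 control arrays. The control arrays alone met the detection rule for Stat4, which could favour a lower captopril value. Its difference and the count of 2 are thus a description only. Stat4 had log2 intensities of 4.89, 4.90 and 5.24 with captopril and 5.75, 5.56 and 5.20 in controls. The groups overlapped, with a difference of -0.49 (SE 0.18), and Socs3, the inhibitor that gp130 signalling induces, differed by -0.67 (SE 0.18) with no overlap. The lowest difference of the list was that of Cish, a STAT5-induced inhibitor, with 8.95, 10.07 and 8.56 with captopril and 9.77, 11.31 and 9.25 in controls. Its groups overlapped, with a difference of -0.92 (SE 0.55). Of 14 adaptors of the interleukin 1 and toll-like receptors, 10 were tested and 1 was higher at an unadjusted p under 0.05, against 1.91% of all named genes. It was Casp1, the protease that matures Il1b and Il18, with 5.94, 6.15 and 5.80 with captopril and 5.84, 4.99 and 5.13 in controls. Control array 1 lay above captopril array 3, and the difference was 0.64 (SE 0.23), which did not pass the adjusted test, while Nlrp3 was not detected.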

How the data were processed

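Kidney cortex RNA of 6 mice was measured on 1 array each, 3 captopril and 3 control, grouped by treatment label. The deposited scanner table holds linear, bead-averaged signal intensity that was not normalized, with a detection p-value beside each signal, per the file headers. A second deposited table holds processed values on a log2-like scale; lumi, with no version, is named per the submitters' processing notes, and its transform is not stated in the sources used here. It was used as an alternative.

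Background correction, an offset of 16, quantile normalization and log2 were done with neqc in limma 3.58.1 (R 4.3.3), with negative controls inferred from detection p-values. The 16500 probes detected (p below 0.05) on 3 or more arrays were fitted with lmFit and eBayes, captopril minus control, no covariate, two-sided, with Benjamini-Hochberg adjustment over all of them. Exact permutation of 3 against 3 arrays cannot go below p = 0.1. The code was tested on simulated data. The brightest tested probe stood for a gene, and 73 of 259 member probes were tested. A bound ("at least") sets each dim array at the higher of its own value and the lowest detected value. Promoter windows came from RefSeq, GRCm38.p6.

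Members and gene lists were chosen with earlier results of these data known. All members are named; values are given for up to 12 detected genes per direction by smallest p, for genes detected on all arrays of one group only, and for a fixed kidney list. Per-array values of others, and of list genes, were chosen after their values were seen. Alternatives were other background corrections, scalings, filters, eBayes options, probe rules and left-out arrays.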

Additional observations from a re-analysis of the deposited data

How the results depend on the processing

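No member passed the adjusted threshold under any setting run, the lowest adjusted p being 0.609 (Il7r, without control array 1). Over all probes the number past the threshold was 3, or 5 with eBayes run with trend and robust, and 0 with the replicate number as a block. With that block 1 member stood at an unadjusted p under 0.05 and 0 passed. The deviations of same-numbered arrays correlated at 0.004 to 0.042, and those of differently numbered arrays at -0.055 to 0.041. Median raw intensity was 147, 119 and 138 on captopril arrays 1 to 3 and 142, 111 and 129 on control arrays 1 to 3. The order by number was thus the same in both groups. With 3 arrays per group these values cannot decide whether the numbers pair the mice, and the labels do not say. The number of members at an unadjusted p under 0.05, 1 as reported, was 2 in the authors' processed values (4.44% of all named genes there), 8 of 156 without the filter (4.76% of all) and 1 to 4 with single arrays left out (3.30% to 5.93% of all). A setting without captopril arrays 1 and 3 was chosen after seeing the data, for the adipocyte markers high on both. It leaves captopril array 2 alone in its group, so its values rest on 1 captopril mouse. The median difference, -0.02, was 0.10 in that setting and -0.04 to 0.03 with single arrays left out. Median scaling gave 0.07, where the median of all genes was 0.08. Detected members numbered 33 with all 6 arrays required and 86 with at least 1 array, 36 at a detection p under 0.01, and 48 to 50 with an array left out.

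Of 38 genes named by rule, 25 kept their sign in every setting that could be fitted, 6 turned only when an array was left out, and 7 also otherwise. Under median scaling Cxcl14 was 0.066, Il17re 0.020 and Tnfrsf1a 0.045. Without captopril arrays 1 and 3, Cxcl14 was 0.35, Il15ra -0.21, Il17rc 0.041, Tnfrsf1a 0.32 and Tnfrsf21 -0.057. With the mean of a gene's probes, Cxcl14 was 0.084, Cxcl16 -0.0020, Il15ra -0.14 and Il17re 0.094. With single arrays left out, the differences ran from -0.028 to 0.11 for Cxcl12, -0.21 to 0.11 for Cxcl14, -0.11 to 0.33 for Il15ra, -0.22 to 0.036 for Il17rb, -0.23 to 0.091 for Il17re, -0.24 to 0.035 for Il18, -0.062 to 0.21 for Il18bp, -0.12 to 0.18 for Il34, -0.083 to 0.14 for Tnfrsf12a, -0.30 to 0.11 for Tnfrsf1a and -0.026 to 0.077 for Tnfrsf21. The cause was not tested. Signal over background limits these values: 18 of the 51 detected members were above background on 3 to 5 arrays, and 105 members could not be compared.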
